A study of Mus musculus with 22 samples.

Results

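Benzene is a volatile solvent that reaches the blood through the lung and is oxidised in liver and lung to reactive products. The liver and lung responses of mice to inhaled benzene were set against each other, gene by gene, to find which genes moved in opposite directions and which moved together. The comparison covers 11524 genes of the 16697 listed in either tissue's table, and 22 of 22 libraries. A gene was a member when both tables listed it under the same Ensembl identifier and its value reached 1 in 5 liver or in 6 lung libraries. Of 11533 genes in both tables, 11266 passed in both tissues, 232 passed only in lung and 26 only in liver. The 9 genes left out reached the value of 1 in at most 3 liver and 5 lung libraries, and 4 members were kept with exactly the minimum number of libraries.

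The mice were males on a C57BL/6J background, labelled 14 weeks old and fed normal chow. The benzene groups breathed benzene at 50 ppm over 6 weeks, in daily sessions of 6 hours and 5 sessions per week (5 livers, 6 lungs), and the air groups breathed air cleaned by carbon and HEPA filters (5 livers, 6 lungs). No allele or transgene is named in the labels. The labels number the samples without saying that each came from its own mouse, or that a liver and a lung came from the same mouse, so the p-values measure the spread between these samples, which may be technical. Whole-tissue poly-A RNA was sequenced, so that fewer cells of a type and less RNA per cell cannot be told apart.

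A response here is the mean of the benzene libraries minus the mean of the air libraries on log2(CPM + 1), where CPM is the normalized signal in the deposited tables, and the difference is the liver response minus the lung response. This scale understates changes of genes near 0. The difference was tested by limma-trend in 1 fit of all libraries, and each response by limma-trend in its own tissue, with a Benjamini-Hochberg adjusted p under 0.05 over all genes tested. Recovered reads per library numbered 9.71 to 12.71 M in benzene livers, 9.46 to 12.42 M in air livers, 8.4 to 10.02 M in benzene lungs and 8.3 to 11.92 M in air lungs. Lung air replicate 5 stood apart, with 894 listed genes that had no read, against 17 to 61 in the rest of the air lungs, and results are given with and without it. Hepatocyte genes Alb, Apoa1 and Ttr were high in every liver. The surfactant genes Sftpc and Sftpb and the club cell gene Scgb1a1 were high in every lung. Both tables were normalized separately by the authors, so levels are compared within a tissue.

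The genes below fall into a few well-studied systems. Class II molecules of the major histocompatibility complex present peptides from engulfed proteins and are made mainly by dendritic cells, B cells and macrophages. Their promoters share a set of boxes and depend on the regulator CIITA. Cytosolic heat shock proteins fold new and damaged proteins and are driven by the transcription factor HSF1. Cholesterol synthesis is driven by SREBP2, which rises when cell sterol is low.

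The liver and lung responses differed in 165 of 11524 genes (1.43%). In 85 genes (0.738%) the response was higher in liver than in lung, and in 80 genes (0.694%) it was lower. Among the members, 130 of 11292 genes tested in liver passed in the liver fit, whatever their lung result (1.15%), 64 higher (0.567%) and 66 lower (0.584%) with benzene. In lung 438 of 11498 passed (3.81%), 239 higher (2.08%) and 199 lower (1.73%). Of the 165 genes, 88 also passed in lung only, 33 in liver only, 8 in both tissues and 36 in neither. The lung response was the larger in absolute size in 95 of them. In 71 the liver value was positive and the lung value negative, in 61 the reverse, and in 33 both had the same sign. Choosing genes by their difference favours opposite signs by construction. Over all 11524 genes the signs were opposite in 49.3%.

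Without lung air replicate 5 the difference passed in 336 genes (2.92%), 187 higher (1.62%) and 149 lower (1.29%), and all 165 genes were among them, 49.1% of the longer list. The lung response then passed in 1477 of 11498 genes (12.8%), 759 higher (6.6%) and 718 lower (6.24%). Other single libraries lowered the count of 165 by over 1.5 times: leaving out lung benzene replicate 1, 5 or 6 gave 91, 106 or 103, leaving out liver benzene replicate 1 or 4 gave 108 or 100, and leaving out liver air replicate 5 gave 109. Across the 11266 genes tested in both tissues the responses had a Pearson r of 0.0061 and a Spearman rho of 0.017, and 0.095 and 0.13 without lung air replicate 5. These correlations are over genes, which are not independent replicates. The SD of the responses over genes was 0.203 in liver and 0.295 in lung.

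**Figure D1:**
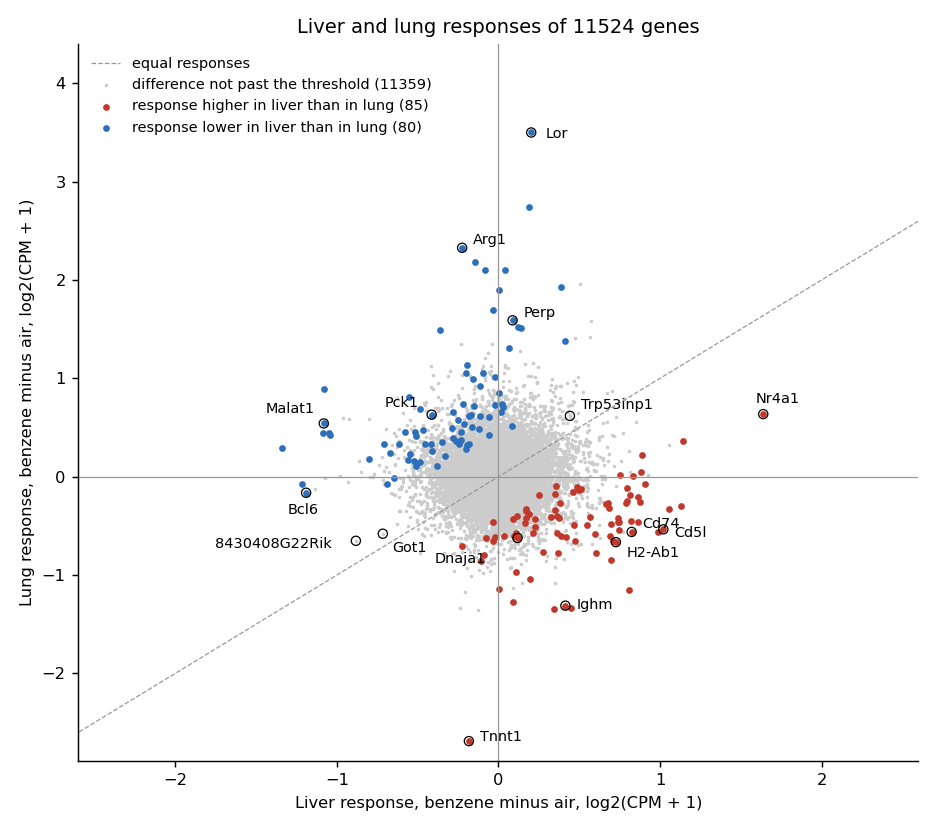
Each point is 1 of 11524 genes, with its liver response on the horizontal axis and its lung response on the vertical axis, both benzene minus air on log2(CPM + 1). Red points are the 85 genes whose response was higher in liver, blue points the 80 genes whose response was lower, and circled genes are named in the text. Of the 165 coloured points, 132 lie in the upper left or lower right parts, where the signs are opposite, and the dashed line marks equal responses.

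Only 7 of 11266 genes tested in both tissues (0.0621%) passed in each tissue with opposite signs, and 5 (0.0444%) with the same sign. All 7 were higher in benzene liver and lower in benzene lung, and 4 of these are class II genes: H2-Ab1, H2-Eb1, H2-Aa and Cd74. The other 3 are the complement genes C1qc and Cfp and the predicted gene Gm20481. No gene passed in the reverse way, lower in benzene liver and higher in benzene lung (0 of 11266, 0% by limma-trend, 0 by edgeR and 4 by DESeq2). The count was 10 with array weights, 1 with upper quartile scaling and 5 without lung air replicate 5 (5 by limma-trend and 5 by edgeR). At an unadjusted p under 0.05 in both tissues, 50 genes (0.444%) had that pattern and 60 (0.533%) the pattern of the class II genes.

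H2-Ab1 (chr17:34257689-34269419 in GRCm38) encodes the beta chain of the I-A molecule. It had 33.4, 27.9, 29.8, 34.8 and 31.4 CPM in the 5 benzene livers, against 15.5, 18.2, 19.6, 17.8 and 22.1 CPM in the 5 air livers. Lungs with benzene had 409 to 538 (median 450.5) CPM, against 624 to 843 (median 730.4) CPM with air. All benzene livers lay above all air livers, and all benzene lungs below all air lungs. Non-overlap of the groups was seen in 3.77% of genes in liver, 4.7% in lung and 0.304% (35 genes) in both. H2-Ab1 rose by 0.73 ± 0.11 in liver and its lung response was -0.67 ± 0.10, so the difference was 1.39 ± 0.14 (limma-trend, adjusted p = 8.43e-07). Without lung air replicate 5 the difference was 1.41 ± 0.13 (limma-trend, adjusted p = 6.33e-08).

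The partner chain gene H2-Aa (chr17:34282744-34287823) had 28.5, 21.5, 21.1, 28.4 and 24.6 CPM in benzene livers, against 13.8, 15.7, 16.9, 12.6 and 13.1 CPM in air livers. Its lung values were 366 to 430.0 (median 387) CPM with benzene, against 429 to 569 (median 547) CPM with air. The liver groups did not overlap, and the lung groups overlapped only through air replicate 5, at 429 CPM against 530.5 to 569 in the rest of the air lungs. The difference was 1.16 ± 0.14 (limma-trend, adjusted p = 1.09e-05). H2-Eb1 (chr17:34305867-34316674), the beta chain of I-E, had 25.4, 22.7, 22.3, 29 and 24.2 CPM in benzene livers, against 14.4, 15, 11.8, 15.2 and 15.1 CPM in air livers. In lung it had 297 to 371 (median 310.3) CPM with benzene, against 380.5 to 523 (median 483) CPM with air. Neither tissue's groups overlapped, and the difference was 1.29 ± 0.13 (limma-trend, adjusted p = 8.43e-07).

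Cd74 (chr18:60803848-60812652) encodes the invariant chain, which guides class II molecules to the compartment where peptide is loaded. It had 60.6, 50.2, 57.3, 68.1 and 67 CPM in benzene livers, against 26, 38, 38.7, 37.6 and 29.7 CPM in air livers, and 937 to 1144 (median 1085) CPM in benzene lungs, against 1279.9 to 1912 (median 1614) CPM in air lungs. Again neither tissue's groups overlapped, and the difference was 1.39 ± 0.17 (limma-trend, adjusted p = 1.86e-05). H2-Ab1, H2-Eb1, H2-Aa and Cd74 each passed in both tissues whichever 1 of the 22 libraries was left out.

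The class II list holds 15 genes, all 15 in the lung table and 11 tested here. In 7 of the 11 the response was higher in liver, with or without lung air replicate 5. In liver 5 rose with benzene, and in lung 5 fell. Of all genes, 0.738% had a response higher in liver, 0.567% rose in liver and 1.73% fell in lung. The median response of the 11 was 0.70 in liver and -0.42 in lung, where the median over all genes was 0.00 and 0.01. The peptide loading genes H2-DMa and H2-DMb1 were low in liver, with 3.71 ± 0.587 and 3.19 ± 0.723 CPM in benzene livers, against 2.07 ± 1.16 and 1.64 ± 0.733 CPM in air livers (SD, n = 5 each). Their differences were 1.29 ± 0.27 and 1.18 ± 0.25 (limma-trend, adjusted p = 0.0117 and 0.0127). H2-DMa shares 3094 bases with Brd2 on the other strand and H2-Eb1 shares 2204 with the antisense gene Gm20513, and the sources used here do not say whether counting used strand. Ctss, the protease that trims the invariant chain, rose by 0.75 ± 0.13 in liver (limma-trend, adjusted p = 0.00371), and its lung response was 0.02 ± 0.1 (limma-trend, adjusted p = 0.921). Rfx5, Rfxank and Rfxap, which encode subunits of the factor that binds class II promoters, had differences of -0.03, 0.25 and -0.08, none past the threshold.

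Promoters of class II genes carry known X and Y boxes, and 3 are shown whose genes had a difference past the threshold. H2-DMb1 did not pass in either tissue alone (limma-trend, adjusted p = 0.15 in liver and 0.0559 in lung). The sequences are the 250 bases before the RefSeq start in GRCm38.p6, read 5′ to 3′ on the gene's strand. Capitals mark the letters GATTGG of the Y box core, the consensus of the X box and the letters TGACGTCA of the X2 box, searched on both strands with no overlap between the motifs found. Of 32851 mouse promoters of this length, 14.6% hold the first, 0.259% the second and 1.55% the third. H2-Aa lies on the minus strand at chr17:34287824-34288073, H2-Eb1 on the plus strand at chr17:34305617-34305866 and H2-DMb1 on the plus strand at chr17:34152941-34153190. A match describes letters and is no evidence that a factor bound there.
H2-Aa: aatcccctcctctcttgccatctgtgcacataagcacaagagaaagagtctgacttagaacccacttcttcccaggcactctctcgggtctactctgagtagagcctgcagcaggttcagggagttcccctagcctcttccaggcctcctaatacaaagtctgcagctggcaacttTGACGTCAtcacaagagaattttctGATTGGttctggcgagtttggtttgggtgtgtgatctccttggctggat
H2-Eb1: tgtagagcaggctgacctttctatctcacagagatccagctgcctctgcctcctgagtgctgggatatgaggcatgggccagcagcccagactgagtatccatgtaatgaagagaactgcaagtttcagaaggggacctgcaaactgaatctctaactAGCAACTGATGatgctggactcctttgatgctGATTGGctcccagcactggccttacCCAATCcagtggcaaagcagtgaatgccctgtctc
H2-DMb1: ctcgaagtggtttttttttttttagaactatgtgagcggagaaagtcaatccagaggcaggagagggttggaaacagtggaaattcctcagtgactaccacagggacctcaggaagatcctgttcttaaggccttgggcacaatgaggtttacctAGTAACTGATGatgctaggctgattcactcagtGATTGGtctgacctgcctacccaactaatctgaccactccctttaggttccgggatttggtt
The Y box core stands 49 to 44 bases before the start in H2-Aa, 60 to 55 in H2-Eb1 and 62 to 57 in H2-DMb1. In H2-Eb1 the same letters also occur on the other strand, 35 to 30 bases before the start. The X box letters were found 92 to 82 bases before the start of H2-Eb1 and 95 to 85 before that of H2-DMb1, and the X2 letters 74 to 67 before that of H2-Aa.

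C1qc (chr4:136889804-136893065), a chain of the complement starter C1q made by macrophages, had 27.2, 20.9, 23, 31.5 and 21.5 CPM in benzene livers, against 14, 12.8, 18.3, 12.2 and 14.7 CPM in air livers. In lung it had 35 to 53.8 (median 42.4) CPM with benzene, against 51.5 to 72.4 (median 56.5) CPM with air. The liver groups did not overlap and the lung groups overlapped. The difference was 1.20 ± 0.18 (limma-trend, adjusted p = 0.000322), and it passed without any single library. The call in lung alone was lost without lung air replicate 1 or lung benzene replicate 1, 3, 5 or 6 (limma-trend, highest adjusted p = 0.0751). Cfp (chrX:20925454-20931555), which encodes properdin, a stabiliser of the alternative complement pathway, had 17.9, 10.9, 14.2, 19.3 and 16.1 CPM in benzene livers, against 6.84, 12, 9.46, 10.1 and 7.63 CPM in air livers. Its lung values were 14.8 to 22.1 (median 19.8) CPM with benzene, against 24.7 to 48.3 (median 28.8) CPM with air, all benzene lungs below all air lungs, while the liver groups overlapped. The difference of Cfp was 1.36 ± 0.24 (limma-trend, adjusted p = 0.00259), and 1.23 ± 0.20 without lung air replicate 5 (adjusted p = 0.000426). Its call in both tissues held in 10 of the 22 fits that left out 1 library, with adjusted p up to 0.115 in liver and 0.0672 in lung.

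**Figure D2:**
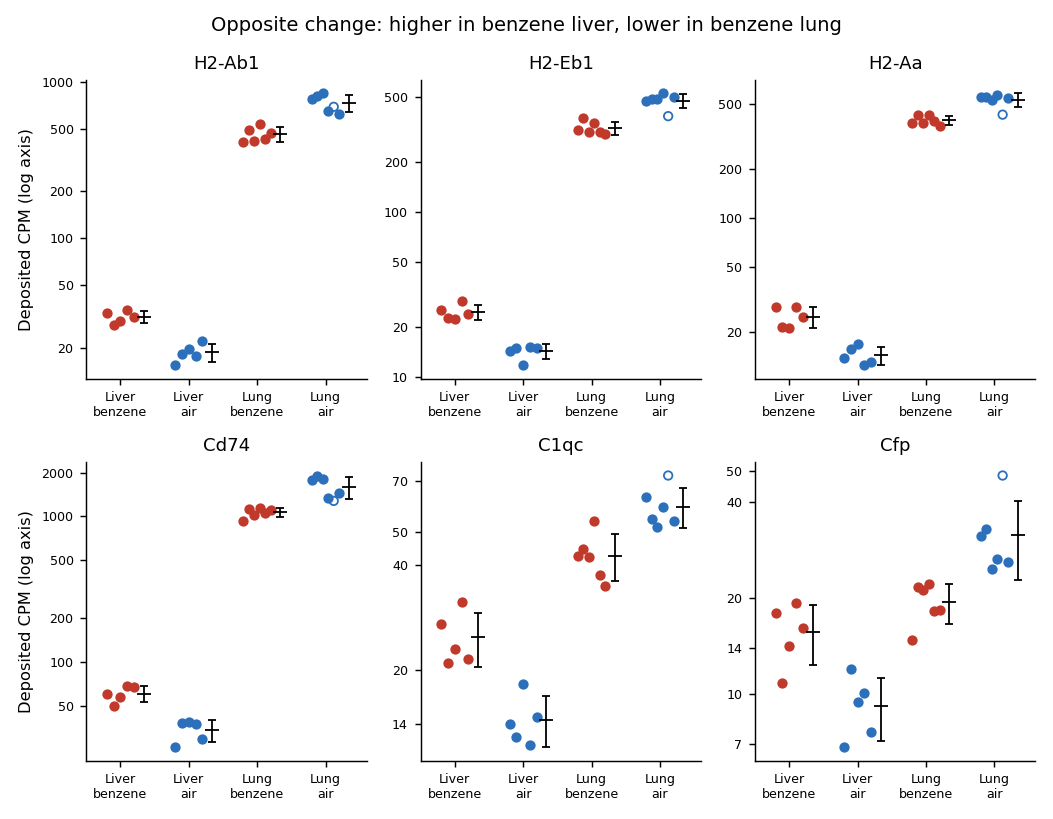
Deposited CPM on a log axis for 6 of the 7 genes with opposite change, 1 point per library. Red points are benzene and blue points air libraries, the open circle is lung air replicate 5, and the bar beside each group is the mean ± SD (n = 5 per liver group, n = 6 per lung group). In every panel the benzene livers average above the air livers and the benzene lungs below the air lungs.

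Some macrophage genes also had a higher response in liver. Of 17 pan-macrophage genes tested, 5 had a response higher in liver (7 without lung air replicate 5), with a median response of 0.49 in liver and 0.02 in lung. Of 12 Kupffer cell genes, which mark the resident macrophages of liver, 3 were higher, with medians of 0.49 and -0.02. The 15 complement genes tested included 4 with a higher response in liver. Alveolar macrophage genes did not share this trait, with medians of 0.26 in liver and 0.24 in lung over 9 genes tested. Of these 9, 1 had a response higher in liver (Marco, also in the Kupffer list) and 1 lower (Atp6v0d2, 0.694% of all genes lower). In lung 2 rose and 1 fell (2.08% and 1.73% of all genes), or 5 and 1 without lung air replicate 5 (6.6% and 6.24%). The share of all genes with a response higher in liver was 0.738%, or 1.62% without lung air replicate 5. The summed level of the Kupffer list, 14 genes in the liver table, was 421 to 511 CPM in benzene livers, against 321 to 340 CPM in air livers, and that of 24 hepatocyte genes was 156570 to 172320 CPM, against 171360 to 183400 CPM. Alb alone gave a large part of the hepatocyte sum, 53298 to 65690 CPM in benzene livers, against 72093 to 76157 CPM in air livers. The hepatocyte genes were not summed without Alb. The part of cell numbers in the class II result was not tested.

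Cd5l, a protein secreted by tissue macrophages, had the highest difference of the Kupffer list. It had 44.6, 42.7, 43.1, 60.2 and 45.5 CPM in benzene livers, against 20.2, 25.3, 23, 24.5 and 20.2 CPM in air livers, with no overlap. In lung it was low, at 0.547 to 1.5 (median 0.872) CPM with benzene, against 1.05 to 2.79 (median 1.62) CPM with air, and the groups overlapped. The difference was 1.56 ± 0.22 (limma-trend, adjusted p = 0.000138). The scavenger receptor gene Marco had 8.89, 6.36, 8.11, 7.52 and 7.64 CPM in benzene livers, against 2.37, 3.46, 3.29, 2.61 and 3.03 CPM in air livers. In lung it had 12.3 to 18.4 (median 14.1) CPM with benzene, against 8.62 to 13.9 (median 11.5) CPM with air, so both responses were positive, 1.14 ± 0.15 in liver and 0.37 ± 0.14 in lung. The difference of Marco, 0.78 ± 0.19 (limma-trend, adjusted p = 0.039), missed the threshold in 15 of the 22 fits that left out 1 library (highest adjusted p = 0.0839).

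Lyz2, the macrophage lysozyme, had a liver response of 1.05 and a lung response of 0.33, and its difference was 0.73 with all libraries and 0.92 without lung air replicate 5 (limma-trend, adjusted p = 0.128 and 2.08e-05). Spi1, the transcription factor of myeloid cells, had 4.00 ± 0.823 CPM in benzene livers, against 2.37 ± 0.547 CPM in air livers, and 34.8 ± 2.93 CPM in benzene lungs, against 46.5 ± 3.8 CPM in air lungs (SD, n = 5 and 6 per group). Its difference was 0.98 ± 0.18 (limma-trend, adjusted p = 0.0032). Ptprc, which encodes the leukocyte surface protein CD45, had a response of 0.83 ± 0.19 in liver and 0.00 ± 0.086 in lung, a difference of 0.83 ± 0.17 (limma-trend, adjusted p = 0.0117). The Fc receptor gene Fcgr1 had a difference of 1.04 ± 0.21 and the inhibitory receptor gene Sirpa one of 0.62 ± 0.15 (limma-trend, adjusted p = 0.00838 and 0.0346). With treatment and replicate number as a block, the differences of Ptprc, Fcgr1 and Sirpa missed the threshold (limma-trend, adjusted p = 0.0648, 0.147 and 0.108). C1qb had a difference of 1.00 ± 0.18 (limma-trend, adjusted p = 0.00284).

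In lung, the summed level of 17 dendritic cell genes was 456 to 499.8 CPM with benzene, against 500.1 to 553 CPM with air and 992 CPM in air replicate 5, and that of 19 B cell genes was 471 to 518 CPM with benzene, against 777 to 899.9 CPM with air. Of those genes 5 and 5 are in both tables, and 1 had a difference past the threshold (1.43% over all genes). It is Ighm, the constant region of IgM, which is itself 1 of the 19 B cell genes summed. Its own lung values, given next, are a large part of that sum. Ighm had 7.01, 6.67, 7.18, 7.78 and 6.61 CPM in benzene livers, against 4.3, 6.37, 4.73, 4.81 and 5.15 CPM in air livers, and 186 to 205 (median 192) CPM in benzene lungs, against 351 to 537 (median 518) CPM in air lungs. Neither tissue's groups overlapped: the benzene livers were slightly above and the benzene lungs far below their air groups. Its difference was 1.73 ± 0.14 (limma-trend, adjusted p = 2.57e-08), with a liver response that missed the threshold (adjusted p = 0.176). The kappa constant gene Igkc had a difference of 1.78 ± 0.27 (limma-trend, adjusted p = 0.000389). The part of B cell and dendritic cell content in the lung response of the class II genes was not tested.

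Of 27 cytosolic heat shock genes tested, 12 fell in benzene lung, and 7 had a response higher in liver. Without lung air replicate 5 these counts were 19 and 13. The shares of all genes were 1.73% and 0.738%, or 6.24% and 1.62% without that library. The median response was -0.01 in liver and -0.42 in lung.

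Dnaja1, a co-chaperone of HSP70, had 186, 187, 188, 197 and 189 CPM in benzene livers, against 174, 168, 173, 181 and 176 CPM in air livers, and 141 to 173 (median 161) CPM in benzene lungs, against 222 to 267 (median 249) CPM in air lungs. The groups did not overlap in either tissue, though the liver response of 0.12 ± 0.06 missed the threshold (limma-trend, adjusted p = 0.42). The difference was 0.74 ± 0.091 (limma-trend, adjusted p = 1.86e-05). Hspa8, the constitutive HSP70, had 906 ± 41.9 CPM in benzene livers, against 965 ± 42.6 CPM in air livers, and 958 ± 112 CPM in benzene lungs, against 1683 ± 313 CPM in air lungs (SD, n = 5 and 6 per group). Its difference of 0.71 ± 0.16 (limma-trend, adjusted p = 0.024) missed the threshold without lung benzene replicate 1 (adjusted p = 0.0503). Hsp90ab1, Fkbp4 and Stip1, which encode HSP90 beta and its co-chaperones, had differences of 0.55 ± 0.13, 0.62 ± 0.14 and 0.48 ± 0.12 (limma-trend, adjusted p = 0.0374, 0.0275 and 0.0389). These 3 missed the threshold in 16, 7 and 17 of the 22 fits that left out 1 library.

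The inducible HSP70 genes were the chaperones with the highest differences. Hspa1b (chr17:34956436-34959238) had 33.8, 37.1, 32.4, 26.3 and 35.1 CPM in benzene livers, against 30, 26.5, 25, 23.2 and 20.2 CPM in air livers, and 22.8 to 26.7 (median 24.7) CPM in benzene lungs, against 29.8 to 44.3 (median 38.4) CPM in air lungs. The liver groups overlapped and the lung groups did not. Its difference was 1.00 ± 0.15 (limma-trend, adjusted p = 0.000414), with a liver response of 0.39 ± 0.12 that missed the threshold (adjusted p = 0.124). Hspa1a (chr17:34969190-34972156) had 6.28, 3.64, 3.28, 4.93 and 4.03 CPM in benzene livers, against 3.77, 1.3, 1.75, 2.12 and 2.48 CPM in air livers, and 18.8 to 26.8 (median 23.5) CPM in benzene lungs, against 25.8 to 36.1 (median 33) CPM in air lungs. Its groups overlapped in both tissues and its difference was 1.21 ± 0.23 (limma-trend, adjusted p = 0.00543). These genes are near-identical copies, so the authors' counting could split or lose reads between them.

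Gm20481, the seventh gene with opposite change, lies on the plus strand at chr17:34969912-34972136, and all 2225 of its bases fall within Hspa1a, which is on the minus strand. It had 3.43, 3.26, 2.26, 4.41 and 3.72 CPM in benzene livers, against 1.23, 1.19, 1.64, 0.408 and 1.84 CPM in air livers, and 9.29 to 14.7 (median 12.5) CPM in benzene lungs, against 14.2 to 23 (median 19.8) CPM in air lungs. The liver groups did not overlap and the lung groups did, with a difference of 1.55 ± 0.25 (limma-trend, adjusted p = 0.000708). Since the sources used here do not say whether counting used strand, reads of Gm20481 and of Hspa1a cannot be told apart. Its call in both tissues held in 12 of the 22 fits that left out 1 library, with adjusted p up to 0.0721 in liver and 0.0682 in lung.

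The promoters of both HSP70 genes are shown because the genes are near-identical copies that each had a difference past the threshold and fell in lung. They are the 250 bases before the RefSeq start in GRCm38.p6 on the minus strand, at chr17:34959239-34959488 and chr17:34972157-34972406, and 247 of the 250 bases are identical. Capitals mark the letters GAANNTTC, a pair of facing heat shock units, searched on both strands and found in 6.69% of 32851 promoters.
Hspa1b: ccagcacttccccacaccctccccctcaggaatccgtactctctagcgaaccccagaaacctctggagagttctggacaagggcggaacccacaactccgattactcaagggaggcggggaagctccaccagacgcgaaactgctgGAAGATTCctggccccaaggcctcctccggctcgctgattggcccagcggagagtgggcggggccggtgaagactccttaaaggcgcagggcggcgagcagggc
Hspa1a: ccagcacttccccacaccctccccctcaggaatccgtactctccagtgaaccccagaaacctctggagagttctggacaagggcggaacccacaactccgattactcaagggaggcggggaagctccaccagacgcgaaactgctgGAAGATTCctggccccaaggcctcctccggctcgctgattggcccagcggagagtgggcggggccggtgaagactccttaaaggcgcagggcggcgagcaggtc
The letters stand 104 to 97 bases before the start in both, and say nothing about HSF1 binding in these tissues.

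Of 23 cholesterol synthesis genes tested, 16 had a negative liver value with a positive lung value, where 2869 of all 11524 genes did. The difference passed as lower in liver in 3, and in 9 without lung air replicate 5. The median response was -0.16 in liver and 0.18 in lung. In lung 1 rose, or 10 without lung air replicate 5, so that most lung calls rest on leaving that library out. Of all genes, 0.694% had a response lower in liver and 2.08% rose in lung, or 1.29% and 6.6% without it.

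The 3 genes are Sqle, Hmgcs1 and Hsd17b7. Sqle, which encodes squalene epoxidase, had 24.4, 29.9, 24.8, 26.8 and 23.3 CPM in benzene livers, against 33.5, 33.3, 28.5, 28.6 and 28.6 CPM in air livers, and 43.6 to 51.4 (median 47.5) CPM in benzene lungs, against 26.4 to 42.7 (median 38.1) CPM in air lungs. The liver groups overlapped and the lung groups did not. Its difference was -0.60 ± 0.14 (limma-trend, adjusted p = 0.0314). Hmgcs1, the cytosolic synthase that makes HMG-CoA, had 104, 101, 123, 124 and 112 CPM in benzene livers, against 123, 121, 128, 128 and 146 CPM in air livers, and 90.3 to 111 (median 101) CPM in benzene lungs, against 71.2 to 104 (median 78) CPM in air lungs. Its groups overlapped in liver, and in lung only through air replicate 5 at 104 CPM. The difference was -0.52 ± 0.13 with that library (limma-trend, adjusted p = 0.0401) and -0.60 ± 0.10 without it (adjusted p = 0.000841). Sqle, Hmgcs1 and Hsd17b7 missed the threshold in 10, 17 and 15 of the 22 fits that left out 1 library, with adjusted p up to 0.0678, 0.0859 and 0.1. Lss, lanosterol synthase, had a difference of -1.03 ± 0.27 that missed the threshold with all libraries (limma-trend, adjusted p = 0.055) and passed without lung air replicate 5 (adjusted p = 0.0156). Hmgcs1 shares 6190 bases with an antisense gene, Gm48342, that is also in the tables. Lss likewise shares 11268 bases with the antisense gene 4930483K19Rik, also in the tables. The promoter of Hmgcs1, on the plus strand at chr13:119690101-119690350 in GRCm38.p6, is shown with the sterol element letters CACCCCAC in capitals, 136 to 129 bases before the RefSeq start. They were searched on both strands, and 2.58% of 32851 promoters hold them.
Hmgcs1: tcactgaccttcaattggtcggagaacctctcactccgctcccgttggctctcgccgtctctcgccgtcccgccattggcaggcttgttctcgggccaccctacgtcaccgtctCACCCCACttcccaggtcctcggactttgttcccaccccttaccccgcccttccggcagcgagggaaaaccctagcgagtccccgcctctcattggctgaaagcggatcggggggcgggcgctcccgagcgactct

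**Figure D3:**
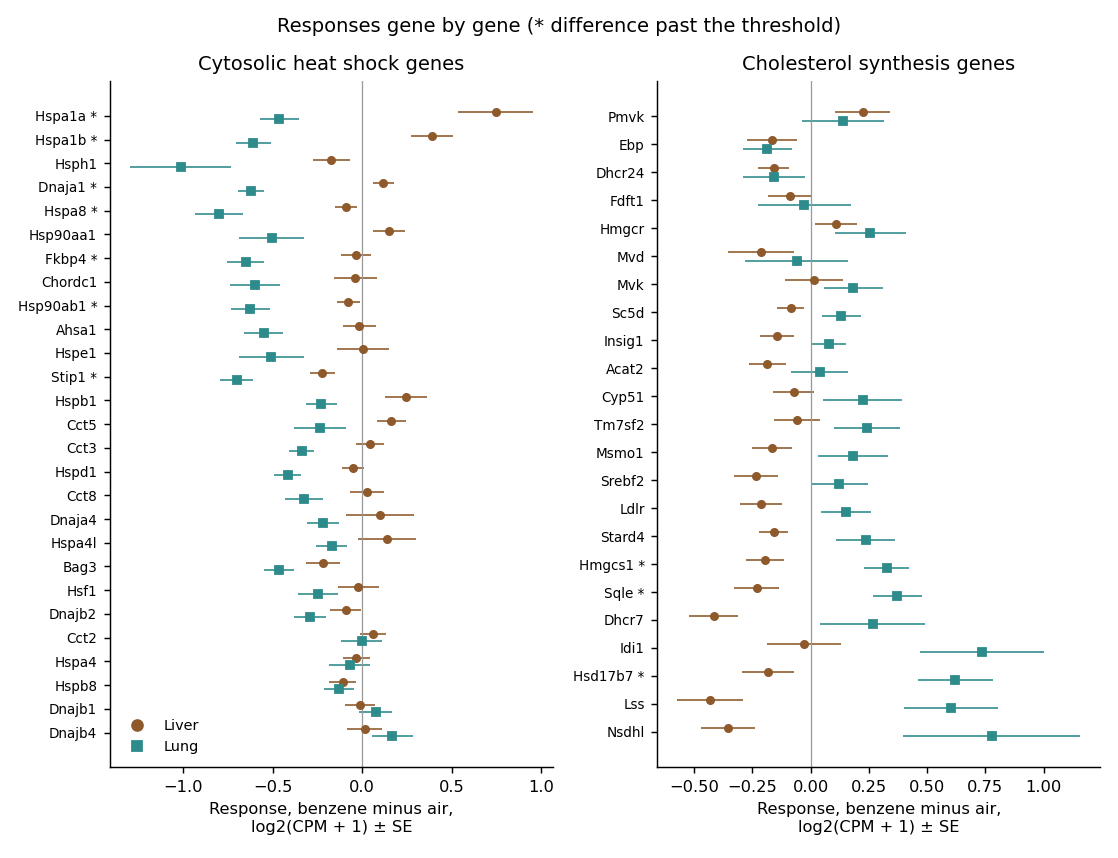
Liver (circles) and lung (squares) responses ± SE of 27 cytosolic heat shock genes and 23 cholesterol synthesis genes, benzene minus air on log2(CPM + 1), ordered by their difference. A star marks a difference past the threshold, 7 on the left and 3 on the right. Lung squares lie left of liver circles for most chaperones and right of them for most cholesterol synthesis genes.

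Without lung air replicate 5, 5 genes passed as lower in benzene liver and higher in benzene lung (0.0444% of 11266): Pck1, Egr1, Arrdc3, Ablim1 and AC149090.1. With all libraries their lung responses missed the threshold, and the differences of all 5 passed. Pck1, which encodes the gluconeogenic enzyme PEPCK, had 2491, 2599, 2476, 1839 and 2419.5 CPM in benzene livers, against 3169.6, 3185, 3095, 3109.7 and 3074 CPM in air livers, and 24 to 30.6 (median 26.5) CPM in benzene lungs, against 8.4 to 22.5 (median 18.1) CPM in air lungs. Neither tissue's groups overlapped, and air replicate 5 was the lowest lung at 8.4 CPM. The difference was -1.04 ± 0.23 (limma-trend, adjusted p = 0.017) and -0.86 ± 0.13 without that library (adjusted p = 9.01e-05).

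Egr1, an immediate early transcription factor, had 5.3, 4.81, 5.23, 4.5 and 5.68 CPM in benzene livers, against 7.89, 8.53, 10.1, 8.56 and 9.74 CPM in air livers. Its lung values were 65.9 to 76.9 (median 71.6) CPM with benzene, against 46.6 to 81.9 (median 54.8) CPM with air, where replicate 5 was the highest and the other air lungs had 46.6 to 58. The difference was -1.03 ± 0.16 (limma-trend, adjusted p = 0.000407). Arrdc3, an arrestin-domain adaptor, had 43.5, 42.5, 48.8, 46.1 and 51.1 CPM in benzene livers, against 72.9, 67.6, 65.2, 64.3 and 70.9 CPM in air livers, and 142 to 152 (median 146) CPM in benzene lungs, against 108 to 139.7 (median 129) CPM in air lungs. Neither tissue's groups overlapped, with a difference of -0.77 ± 0.10 (limma-trend, adjusted p = 6.45e-05). The actin-binding gene Ablim1 had a difference of -0.79 ± 0.15 (limma-trend, adjusted p = 0.00516).

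Arg1, the arginase of the urea cycle, had 1236, 1269, 1194, 1062 and 1212 CPM in benzene livers, against 1482, 1418, 1360.2, 1353 and 1356 CPM in air livers, and 7.09 to 11.8 (median 10.3) CPM in benzene lungs, against 0 to 1.96 (median 1.47) CPM in air lungs. The benzene livers lay below all air livers and the benzene lungs above all air lungs. The liver response of -0.22 ± 0.066 missed the threshold (limma-trend, adjusted p = 0.123), the lung response was 2.33 ± 0.24 and the difference -2.55 ± 0.26 (limma-trend, adjusted p = 1.08e-06). Arg1 was read in 5 of the 6 air lungs and listed at 0 in replicate 5. Of 19 genes of gluconeogenesis and amino acid breakdown, 2 had a response lower in liver, Arg1 and Pck1, where 0.694% of all genes did.

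In some genes the larger response was in liver. Bcl6, a transcriptional repressor, had 16.1, 15.5, 17, 14.2 and 16.2 CPM in benzene livers, against 45.8, 34.3, 39.6, 31.8 and 36.3 CPM in air livers, and 36.3 to 49 (median 41.8) CPM in benzene lungs, against 40.6 to 51.4 (median 47.2) CPM in air lungs. The liver groups were far apart and the lung groups overlapped, with a difference of -1.03 ± 0.14 (limma-trend, adjusted p = 0.000114). Cish, an inhibitor of STAT5 signalling, moved the other way in liver, with 21.5 ± 3.00 CPM in benzene livers, against 11.4 ± 2.01 CPM in air livers (SD, n = 5 each), and a difference of 1.07 ± 0.17 (limma-trend, adjusted p = 0.000529). Of the nuclear noncoding RNAs, Malat1 had 18.7, 26.8, 24.6, 11.8 and 17.5 CPM in benzene livers, against 44.4, 40.3, 47.1, 43.3 and 34.1 CPM in air livers, and 186 to 281 (median 235) CPM in benzene lungs, against 69.4 to 289 (median 188) CPM in air lungs, where the groups overlapped widely. Malat1 and Neat1 had differences of -1.62 ± 0.37 and -0.98 ± 0.22 (limma-trend, adjusted p = 0.0273 and 0.0249). They missed the threshold in 7 and 3 of the 22 fits that left out 1 library. Gadd45g, a stress-response gene, and Myc had differences of 1.39 ± 0.27 and 0.99 ± 0.22 (limma-trend, adjusted p = 0.00648 and 0.0249).

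Genes of stratified squamous epithelium, the layered lining of skin and oesophagus, had some of the lowest differences. Of 8 such genes tested, 7 rose in lung and 6 had a response lower in liver (2.08% and 0.694% of all genes). Lor, the cornified envelope protein loricrin, is outside that list and had the lowest difference of all 165 genes. It had 0.897, 1.47, 2.18, 3.28 and 1.34 CPM in benzene livers, against 1.05, 2.7, 1.13, 1.96 and 0.551 CPM in air livers, and 446 to 879 (median 667) CPM in benzene lungs, against 40.7 to 69.8 (median 56.1) CPM in air lungs. The liver groups overlapped near the value of 1, and the lowest benzene lung was far above the highest air lung. The difference of Lor was -3.30 ± 0.32 (limma-trend, adjusted p = 5.23e-07). Perp, a desmosomal membrane protein and p53 target, had 95.6, 101, 101, 95.4 and 90.4 CPM in benzene livers, against 95.3, 83, 90.3, 84.4 and 102 CPM in air livers, and 138 to 156 (median 146) CPM in benzene lungs, against 42.3 to 54.2 (median 48.1) CPM in air lungs. It is well read in both tissues, its liver response was 0.09 ± 0.076 and its difference -1.50 ± 0.11 (limma-trend, adjusted p = 5.25e-09). The desmosome genes Dsc2, Ppl and Dsp had differences of -2.19 ± 0.16, -1.25 ± 0.19 and -0.84 ± 0.14, the connexin gene Gjb2 -1.90 ± 0.14, the fatty acid carrier gene Fabp5 -1.73 ± 0.14 and the transglutaminase gene Tgm1 -2.33 ± 0.18. The summed level of 33 squamous genes in the lung table was 4850 to 5187 CPM with benzene, against 697 to 793 CPM with air. The 8 of them in the liver table summed to 498 to 552 CPM with benzene, against 489.7 to 548 CPM with air. The part of tissue content in these lung values was not tested.

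The highest difference was that of Tnnt1, slow skeletal troponin T, with 1.14, 1.09, 1.95, 0.951 and 1.76 CPM in benzene livers, against 0.877, 1.84, 2.36, 1.47 and 2.02 CPM in air livers, and 1.84 to 3.65 (median 3.17) CPM in benzene lungs, against 19.7 to 28.3 (median 24.9) CPM in air lungs. The liver groups overlapped and the lung groups were far apart, with a difference of 2.51 ± 0.24 (limma-trend, adjusted p = 3.23e-07). Of 12 smooth muscle genes, 5 fell in lung and 4 had a response higher in liver (6 without lung air replicate 5). The shares of all genes were 1.73% and 0.738% (1.62% without that library). Acta2, smooth muscle actin, had 8.56, 6.36, 6.79, 9.51 and 7.02 CPM in benzene livers, against 4.73, 5.18, 6.68, 5.22 and 6.8 CPM in air livers, and 301 to 358 (median 321) CPM in benzene lungs, against 418 to 558 (median 496) CPM in air lungs. Its groups overlapped in liver and not in lung, and its difference was 0.94 ± 0.15 (limma-trend, adjusted p = 0.00103). Tagln, Tpm2 and Cnn1, which encode proteins of the contractile apparatus, had differences of 1.14 ± 0.24, 1.04 ± 0.20 and 1.27 ± 0.21 (limma-trend, adjusted p = 0.0151, 0.00555 and 0.000844). Cnn1 is 1 of 5 genes among the 165 that passed the filter in lung only. Tagln overlaps an antisense gene over 3627 bases. The summed level of 24 skeletal muscle genes in lung was 1996 to 2382 CPM with benzene, against 2988 to 3213 CPM with air and 5097 CPM in air replicate 5, and the part of muscle content in these lung values was not tested.

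Shared change was rare at the same threshold. Of 11266 genes tested in both tissues, 3 rose in both (0.0266%), Nr4a1, Trp53inp1 and Akr1c14, and 2 fell in both (0.0178%), Got1 and 8430408G22Rik. At an unadjusted p under 0.05 in both tissues the shared genes outnumbered the opposite ones, 180 (1.6%) to 110 (0.976%), with 106 higher in both (0.941%) and 74 lower in both (0.657%). Without lung air replicate 5 these counts were 301 (2.67%) and 136 (1.21%). Of the 35 genes whose groups did not overlap in either tissue, 18 moved the same way and 17 opposite ways.

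Nr4a1, an immediate early nuclear receptor (chr15:101254269-101274795), had 7.42, 7.37, 6.24, 7.52 and 7.64 CPM in benzene livers, against 2.02, 0.54, 1.44, 3.26 and 1.65 CPM in air livers, and 64.4 to 81.1 (median 71.5) CPM in benzene lungs, against 40.2 to 55.8 (median 43.9) CPM in air lungs. Every benzene library was above every air library of its tissue. It rose by 1.64 ± 0.22 in liver (limma-trend, adjusted p = 0.000328) and by 0.64 ± 0.097 in lung (adjusted p = 0.000753), and both calls held without any single library. The rise was larger in liver by 1.00 ± 0.23 (limma-trend, adjusted p = 0.0273), a difference that missed the threshold in 8 of the 22 fits that left out 1 library (adjusted p up to 0.0558).

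Trp53inp1, a p53-induced nuclear protein (chr4:11156431-11174379), had 50.5, 61, 53.2, 47.8 and 44.3 CPM in benzene livers, against 38.8, 34.6, 38.4, 33.6 and 41.7 CPM in air livers, and 119 to 139.7 (median 130.4) CPM in benzene lungs, against 55 to 104 (median 89) CPM in air lungs. Neither tissue's groups overlapped. It rose by 0.44 ± 0.096 in liver and 0.62 ± 0.13 in lung (limma-trend, adjusted p = 0.0263 and 0.00862), with a difference of -0.18 ± 0.17 (adjusted p = 0.621). The liver call was lost without liver air replicate 2, 3 or 4 or liver benzene replicate 1, 2 or 3 (adjusted p up to 0.0933). Of 27 p53 target genes, 1 rose in liver, and 5 rose and 1 fell in lung, where the shares of all genes were 0.567%, 2.08% and 1.73%.

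Akr1c14, a steroid dehydrogenase of the aldo-keto reductases (chr13:4049011-4090688), had 334, 362, 352, 383 and 328 CPM in benzene livers, against 348, 236, 250.5, 226 and 245 CPM in air livers. In lung it had 133 to 158 (median 146) CPM with benzene, against 71.4 to 106 (median 102) CPM with air. One air liver, replicate 1, lay within the benzene range, and the lung groups did not overlap. It rose by 0.44 ± 0.098 in liver and 0.63 ± 0.1 in lung (limma-trend, adjusted p = 0.0284 and 0.00114). The liver call was lost without liver air replicate 2, 3, 4 or 5 or liver benzene replicate 1, 3 or 5 (adjusted p up to 0.105).

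Got1, cytosolic aspartate aminotransferase (chr19:43499752-43524605), had 233, 245, 240.1, 202 and 251 CPM in benzene livers, against 367, 393, 386, 385 and 390.1 CPM in air livers, and 25.3 to 31.1 (median 30.4) CPM in benzene lungs, against 29.1 to 57 (median 46.7) CPM in air lungs. The liver groups were far apart, and the lung groups overlapped only through air replicate 5 at 29.1 CPM. Its liver response was -0.72 ± 0.069 and its lung response -0.58 ± 0.13 (limma-trend, adjusted p = 1.17e-05 and 0.0176), and the lung call was lost without lung benzene replicate 3 (adjusted p = 0.0509). The gene 8430408G22Rik (chr6:116650609-116652794), named Depp1 in the GENCODE annotation, had 55.2, 55.5, 49.8, 60.5 and 56.5 CPM in benzene livers, against 84.1, 105, 115, 106 and 108 CPM in air livers, and 30.1 to 50.3 (median 42.8) CPM in benzene lungs, against 50.4 to 89.2 (median 66.5) CPM in air lungs. Neither tissue's groups overlapped. Its liver response was -0.88 ± 0.088 and its lung response -0.65 ± 0.14 (limma-trend, adjusted p = 1.51e-05 and 0.0141). All 2186 of its bases lie within Rassf4 on the other strand, which had no response past the threshold in either tissue.

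**Figure D4:**
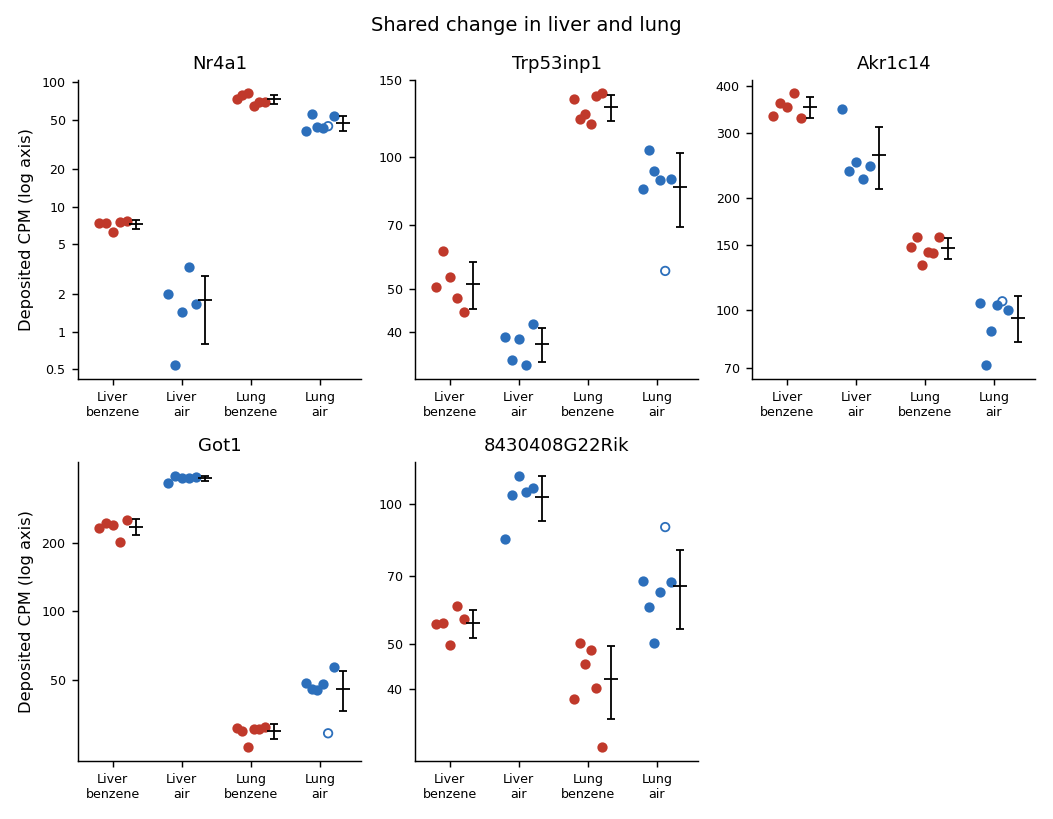
Deposited CPM on a log axis for the 5 genes that passed in both tissues with the same sign, 1 point per library. Red points are benzene and blue points air libraries, the open circle is lung air replicate 5, and bars are the mean ± SD (n = 5 per liver group, n = 6 per lung group). Nr4a1, Trp53inp1 and Akr1c14 are higher with benzene in both tissues, Got1 and 8430408G22Rik lower.

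Without lung air replicate 5, 8 genes rose in both tissues (0.071%) and 11 fell in both (0.0976%). The 8 were Nr4a1, Trp53inp1, Akr1c14, Marco, Parp12, Txnip, Gpcpd1 and Lifr. The 11 were Got1, 8430408G22Rik, Idh2, Grb7, Syvn1, Plec, Aldh1b1, Thra, Nr1d1, Sorbs3 and mt-Nd4, among them a clock repressor (Nr1d1), a thyroid hormone receptor (Thra) and a mitochondrial isocitrate dehydrogenase (Idh2). The opposite genes then numbered 15 (0.133%), 10 of them higher in liver and lower in lung (0.0888%), with Cd5l, C1qb and the lipid transfer gene Pltp added.

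Of 21 enzymes of benzene metabolism tested, 2 rose and 2 fell in liver, 2 rose in lung, and 1 difference passed, that of Gstm2, a glutathione transferase, at -0.63 ± 0.15 (limma-trend, adjusted p = 0.0346). Among all genes 0.567% rose and 0.584% fell in liver, 2.08% rose in lung, and 0.694% had a response lower in liver. Without lung air replicate 5, 2 of the 21 rose and 3 fell in lung (6.6% and 6.24% of all genes). The response was then higher in liver in 2 and lower in 1 (1.62% and 1.29% of all genes). Gstm2 had 96.5 ± 6.81 CPM in benzene livers, against 152 ± 13 CPM in air livers, and 163 ± 11 CPM in benzene lungs, against 166 ± 29.2 CPM in air lungs (SD, n = 5 and 6 per group). Cyp2e1, which encodes the cytochrome that oxidises most benzene in liver, had differences of 0.32 ± 0.15 with all libraries and 0.43 ± 0.098 without lung air replicate 5 (limma-trend, adjusted p = 0.35 and 0.0123), with a liver response of -0.05 ± 0.073. Cyp2f2, a lung monooxygenase, and Ephx1, microsomal epoxide hydrolase, had differences of 0.09 ± 0.31 and -0.21 ± 0.20 (limma-trend, adjusted p = 0.899 and 0.614).

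Nqo1, the quinone reductase, had a response of 0.17 ± 0.14 in liver and 0.59 ± 0.14 in lung, where it passed, and a difference of -0.42 ± 0.19 that did not (limma-trend, adjusted p = 0.317). Hmox1, haem oxygenase and a Kupffer cell gene, had 27.5 ± 3.84 CPM in benzene livers, against 14.3 ± 0.985 CPM in air livers, and 46.6 ± 4.95 CPM in benzene lungs, against 39.9 ± 5.33 CPM in air lungs (SD, n = 5 and 6 per group). Its difference was 0.66 ± 0.15 (limma-trend, adjusted p = 0.0271), missed in 8 of the 22 fits that left out 1 library. Cyp1a1, a target of the aryl hydrocarbon receptor, was near 1 CPM in liver and fell in lung, to 21.2 ± 1.05 CPM with benzene, against 58.6 ± 35.7 CPM with air (SD, n = 6 each). Its difference was 1.37 ± 0.30 (limma-trend, adjusted p = 0.0197) and 1.11 ± 0.18 without lung air replicate 5 (adjusted p = 0.000223), and with all libraries edgeR gave an adjusted p of 0.083 for it. Of 5 targets of that receptor tested, 3 rose and 1 fell in lung (2.08% and 1.73% of all genes), with a median lung response of 0.52. The summed level of 8 such genes in the lung table was 503 to 554 CPM with benzene, against 351 to 429 CPM with air. In liver the sum went the other way. The 8 such genes in the liver table summed to 818 to 1165 CPM with benzene, against 1195 to 1281 CPM with air.

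Acute phase and interferon genes added a few more, where 0.738% of all genes had a response higher in liver. Of 17 acute phase genes, 3 had a response higher in liver: Saa3, a serum amyloid of macrophages and inflamed tissue, Lcn2, a siderophore-binding protein, and Hp, haptoglobin. Saa3 had 6.6 ± 2.73 CPM in benzene livers, against 3.19 ± 0.749 CPM in air livers, and 3.65 ± 1.28 CPM in benzene lungs, against 10.5 ± 8.17 CPM in air lungs (SD, n = 5 and 6 per group), with a difference of 1.95 ± 0.41 (limma-trend, adjusted p = 0.0144) that was 1.66 ± 0.30 without lung air replicate 5 (adjusted p = 0.00114). Of 26 interferon-stimulated genes, Igtp and Irf9 had differences of 0.65 ± 0.13 and 0.66 ± 0.17 (limma-trend, adjusted p = 0.0103 and 0.0437), and Irf9 missed the threshold in 18 of the 22 fits that left out 1 library. Igtp shares 7974 bases with Irgm2 on the same strand. The chemokine gene Cxcl9 had a difference of 1.54 ± 0.30 (limma-trend, adjusted p = 0.00621). Of 27 genes of endoplasmic reticulum stress and folding, Manf and Creld2 had differences of 0.75 ± 0.18 and 0.68 ± 0.14 (limma-trend, adjusted p = 0.0336 and 0.0122), from lung responses of -0.86 and -0.57. Manf shares 42681 bases with Dcaf1 on the other strand.

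**Figure D5:**
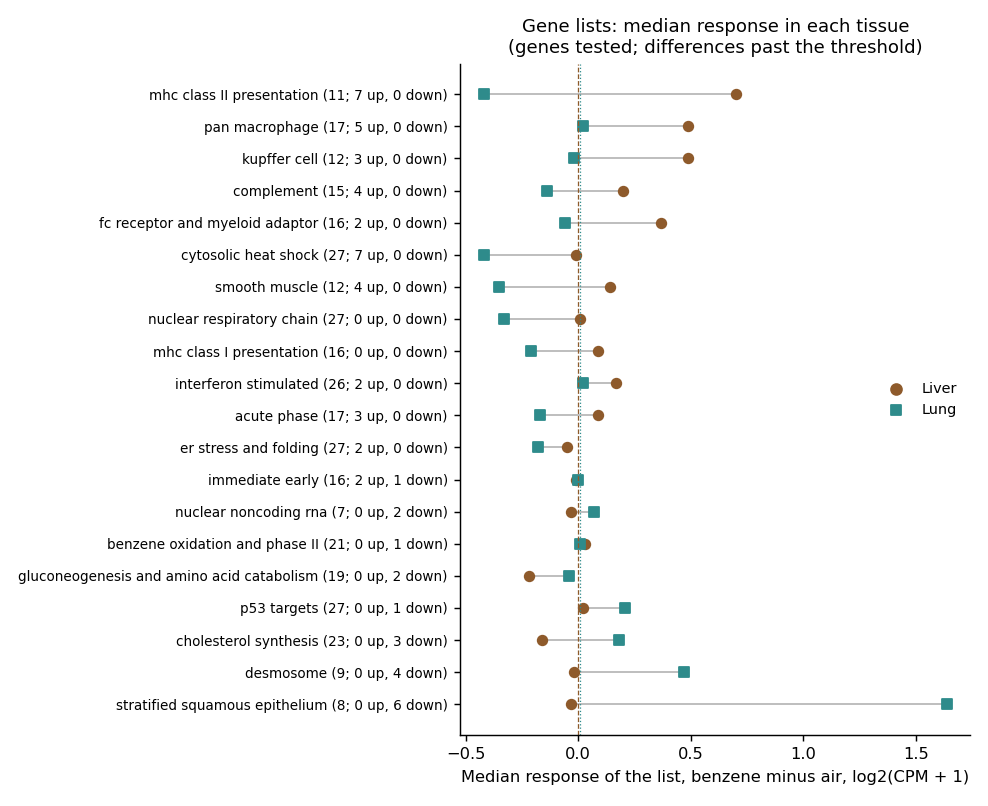
Median response of 20 gene lists in liver (circles) and lung (squares), benzene minus air on log2(CPM + 1), with the number of genes tested and of differences past the threshold beside each name. The dashed and dotted lines are the medians over all genes, 0.00 in liver and 0.01 in lung. The class II list is high in liver and low in lung, and the squamous list is near 0 in liver and at 1.64 in lung.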

How the data were processed

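Libraries were poly-A selected and sequenced as paired 150-base reads, per the labels' protocols. Reads were handled with fastp 0.20.0, STAR and edgeR 3.10 on GRCm38, per the submitters' processing notes. No source used here names the read counter, the annotation, the gene filter or the strandedness. The deposited values, headed CPM by the authors, are a normalized signal per gene, made separately for each tissue. Dividing each library's values by its step gave whole reads for 100% of values within a tolerance of 0.01, which gave the depths and allowed count tests as alternatives. The plan was limma-trend on log2(value + 1) for values headed CPM, with a count fit only if they proved to be raw counts.

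The liver and lung tables were joined by Ensembl identifier, and 11524 of 11533 joined genes matched GENCODE M21, which gave positions. In the tested genes 13 symbols written as dates were restored. Every value column was mapped to a sample (0 were not). Groups came from the labels. The difference was fitted over 4 group means in 1 model, each response within its tissue over the whole table, and p-values were Benjamini-Hochberg adjusted over all genes tested. Fits were tested on simulated data. Named genes were those called in both tissues, the 6 highest and 6 lowest differences with a mean of at least 1 in a group of each tissue (predicted genes, clone names, pseudogenes and immunoglobulin or T cell receptor segments left out), the 2 with the smallest p per list, 6 metabolism genes whatever their result, and the 5 with the smallest larger p for each kind of shared or opposite change. That gave 74 genes, and 21 more, 95 in all, were added after their values were seen. Members and the 50 gene lists were chosen with earlier results of these data known. Promoters came from RefSeq's GRCm38.p6 table, where H2-Ab1, Sqle, Trp53inp1 and Hspa8 had no entry.

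Alternatives were other pseudocounts, filters and scalings, array weights, robust moderation, replicate blocks, 1 fit for both responses, DESeq2 1.42.0, edgeR 4.0.16 and leaving out each library. R 4.3.3, limma 3.58.1, Python 3.11.15, pandas 2.3.3, numpy 2.4.6 and matplotlib 3.10.9 were used.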

Additional observations from a re-analysis of the deposited data

Results flagged for a closer look

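Single libraries stood far from the rest of their group in 15 of 120 groups of gene values examined, where chance flags about 1 in 20. Lung air replicate 5 was the one in 6 of the 15: it had 429 CPM of H2-Aa, 48.3 of Cfp, 351 of Ighm, 104 of Hmgcs1, 8.4 of Pck1 and 81.9 of Egr1. In benzene lungs, Tnnt1 was 1.84 CPM in replicate 6 and Got1 was 25.3 CPM in replicate 3. In benzene livers, Nr4a1 was 6.24 CPM in replicate 3, and replicate 4 had 60.2 CPM of Cd5l, 197 of Dnaja1 and 1839 of Pck1. In air livers, replicate 1 had 348 CPM of Akr1c14 and 367 of Got1, and replicate 3 had 11.8 CPM of H2-Eb1.

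The liver and lung responses differed past the threshold in 81 of the 95 genes with values (limma-trend, adjusted p over all genes). Their differences, liver minus lung on log2(CPM + 1), are given here in groups by sign. The negative differences were -3.30 for Lor, -2.56 for Fam25c, -2.55 for Arg1, -2.33 for Tgm1, -2.19 for Dsc2, -2.07 for Hsd17b2, -1.90 for Gjb2, -1.73 for Fabp5 and -1.62 for Malat1. They continued with -1.50 for Perp, -1.25 for Ppl, -1.04 for Pck1, -1.03 for Egr1, -1.03 for Bcl6, -0.98 for Neat1, -0.97 for Atp6v0d2, -0.94 for Sema4g and -0.84 for Dsp. The smallest in size were -0.80 for Hsd17b7, -0.79 for Ablim1, -0.77 for Arrdc3, -0.67 for Ugcg, -0.63 for Gstm2, -0.60 for Sqle and -0.52 for Hmgcs1. The positive differences began with 2.51 for Tnnt1, 1.95 for Saa3, 1.78 for Igkc, 1.73 for Ighm, 1.69 for Tnnc1, 1.56 for Cd5l, 1.55 for Gm20481, 1.54 for Cxcl9 and 1.39 for H2-Ab1. Next were 1.39 for Gadd45g, 1.39 for Cd74, 1.38 for Ube2c, 1.37 for Cyp1a1, 1.36 for Cfp, 1.29 for H2-Eb1, 1.29 for H2-DMa, 1.27 for Cnn1 and 1.21 for Hspa1a. Then followed 1.20 for C1qc, 1.19 for Muc1, 1.18 for H2-DMb1, 1.16 for H2-Aa, 1.14 for Tagln, 1.14 for Thrsp, 1.13 for Lcn2, 1.07 for Cish and 1.06 for Selenbp2. After these came 1.04 for Fcgr1, 1.04 for Tpm2, 1.00 for Nr4a1, 1.00 for C1qb, 1.00 for Hspa1b, 0.99 for Myc, 0.98 for Spi1, 0.94 for Acta2 and 0.83 for Ptprc. Further values were 0.79 for Laptm5, 0.78 for Marco, 0.75 for Manf, 0.74 for Dnaja1, 0.73 for Bhlhe40, 0.73 for Ctss, 0.71 for Hspa8, 0.68 for Creld2 and 0.66 for Hmox1. The remaining values were 0.66 for Irf9, 0.65 for Igtp, 0.63 for Hp, 0.63 for Pltp, 0.62 for Fkbp4, 0.62 for Sirpa, 0.59 for Lrg1, 0.55 for Hsp90ab1 and 0.52 for Lipe. Last were 0.50 for Acadm and 0.48 for Stip1.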

How the results depend on the processing

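With all libraries the difference passed in 165 genes, 85 higher and 80 lower in liver; the whole tables held 186 liver and 891 lung calls, and 5 genes had shared and 7 opposite change in both tissues. Leaving out each library in turn gave 91 to 336 differences (49 to 187 higher, 42 to 149 lower), 3 to 19 shared and 4 to 15 opposite genes, 99 to 271 liver and 587 to 2302 lung calls; both the highest difference count and the highest lung count came without lung air replicate 5. DESeq2 gave 386 (229 higher, 157 lower), 16 shared, 16 opposite, 320 liver and 1671 lung calls. Array weights gave 517 (282 and 235), 90 shared, 30 opposite, 461 liver and 3215 lung calls. The filter requiring both tissues left 94 liver and 277 lung calls, fewer genes being tested, and 1 fit of all 22 libraries gave 74 and 509. edgeR without lung air replicate 5, chosen after seeing the data, gave 342 (197 and 145), 19 shared, 15 opposite and 2254 lung calls. With the replicate number as a block, 50 were lower in liver, 2 shared, 2 opposite and 414 lung genes passed. With treatment and number as the block 69 differences passed (39 higher, 30 lower). Those of H2-Ab1, H2-Eb1, H2-Aa and Cd74 were among them (limma-trend, highest adjusted p = 0.00153). Genes that then missed the threshold included Ptprc, Fcgr1, Sirpa, Myc, Cxcl9 and H2-DMb1 (limma-trend, adjusted p = 0.0648, 0.147, 0.108, 0.102, 0.0656 and 0.113). The labels do not say whether equal numbers pair the samples. Correlations of same-numbered deviations were -0.459 to 0.58 between tissues (3 of 10 over 0.1) and -0.402 to 0.187 between treatments (2 of 11). These few correlations do not show pairing and cannot exclude it. The cause of these moves was not tested. The difference of Sept11 was -0.07, and -0.14 to 0.03 when 1 library was left out (0.032 without liver benzene replicate 4), and that of Got1 was 0.0016 with array weights and 0.0052 with edgeR without lung air replicate 5, opposite in sign to its value with all libraries; neither gene was near the threshold. Of the 81 genes with a difference past the threshold, 53 passed whichever library was left out. Counting noise limits genes near 1 CPM, such as Lor, Tnnt1 and H2-DMb1 in liver.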

Other observations

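Some lipid and hormone genes differed between tissues without belonging to the groups above. Thrsp, a thyroid-hormone-responsive gene of fat synthesis, had 376 ± 42.1 CPM in benzene livers, against 374 ± 24 CPM in air livers, and 26.7 ± 4.91 CPM in benzene lungs, against 60.7 ± 16.4 CPM in air lungs (SD, n = 5 and 6 per group), with a difference of 1.14 ± 0.20 (limma-trend, adjusted p = 0.00207). Acadm, the medium-chain acyl-CoA dehydrogenase of fat oxidation, and Lipe, hormone-sensitive lipase, had differences of 0.50 ± 0.11 and 0.52 ± 0.13 (limma-trend, adjusted p = 0.027 and 0.0371). Lipe shares 19184 bases with the antisense gene 4732471J01Rik. Hsd17b2, which oxidises sex steroids, rose in lung by 2.11 ± 0.21 and had a difference of -2.07 ± 0.23 (limma-trend, adjusted p = 6.05e-06). Of 16 class I presentation genes, 0 had a difference past the threshold by limma-trend with all libraries (7 at an unadjusted p under 0.05) and 4 had a response higher in liver without lung air replicate 5. The median response was 0.09 in liver and -0.21 in lung. Of 27 nuclear genes of the respiratory chain, 3 fell in lung. None of the differences, 0 of 27, passed by limma-trend with all libraries (7 at an unadjusted p under 0.05), 3 were higher in liver without lung air replicate 5, and the median response was 0.01 in liver and -0.33 in lung. Over all genes 1.73% fell in lung, and 1.62% had a response higher in liver without that library. The share of all genes with a difference at an unadjusted p under 0.05 was not counted, so the counts at that threshold cannot be set against it.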
